A study of Mus musculus with 4 samples.

Results

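Melanin-concentrating hormone (MCH) and orexin, also called hypocretin, are neuropeptides made by a pair of intermingled but separate neuron populations whose cell bodies lie almost entirely in the lateral hypothalamus and the zones next to it. Both populations project widely through the brain. Orexin neurons are known for sustaining wakefulness and arousal, and MCH neurons for their part in feeding, energy balance and sleep. Pmch encodes the MCH precursor and Hcrt the precursor of orexin-A and orexin-B.

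The spots described here are 150 Visium spots, the 50 with the most Pmch and Hcrt in each of 3 coronal brain sections, of 13452 spots kept in 4 sections. A Visium spot is a small area of tissue that can hold several cells of different types, and its RNA is counted in unique molecular identifiers (UMIs), each marking 1 captured probe molecule. Every spot was scored by the mean over Pmch and Hcrt of ln(1 + UMIs per 10000 UMIs of that spot), and the 50 highest-scoring spots of each of 3 sections (the MF pair and the first of the HF group) were taken as member spots. They were 1.39%, 1.51% and 1.56% of the kept spots of those sections. Values given as lists of 3 stand in the order MF replicate 1, MF replicate 2, HF replicate 1.

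The sections came from wild-type C57BL/6J male offspring at postnatal day 21, whose dams, 8 weeks old at assignment, ate folic acid at 2 mg/kg (median folate, MF group) or 20 mg/kg (high folate, HF group) from 2 weeks before mating until the end of lactation. Each diet had 2 sections, fixed in formalin and embedded in paraffin, and the litters of the animals were not given in the sources used here. HF replicate 2 had no member spots, because its 42506921 UMIs held 30 of Pmch and 10 of Hcrt. Whether the sections were cut at like levels of the brain was not tested, so diet and level of cut cannot be told apart. The kept spots of the other sections held 90096877 UMIs in MF replicate 1, 42422997 in the other MF section and 34982061 in HF replicate 1, so depth was unequal and 1 section stood for the HF group.

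The member spots were chosen by their levels of Pmch and Hcrt, so these levels are a description and were not tested. The Pmch level of the member spots had a median of 91.5 UMIs per 10000 in MF replicate 1 (13.5 to 614), 61.8 in the other MF section (4.75 to 847) and 36 in HF replicate 1 (2.49 to 641). The median of all other spots was 2.37, 1.45 and 0 in the same order. The Hcrt level had a median of 9.23 UMIs per 10000 in MF replicate 1 (0 to 168), 5.24 in the other MF section (0 to 126) and 6.42 in HF replicate 1 (0 to 112). All 50 member spots of each section had a Pmch UMI, and 49, 46 and 46 of them also had an Hcrt UMI.

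Summed over the member spots and scaled to the UMIs of all genes but Pmch and Hcrt, Pmch stood at 17190 CPM, counts scaled to an equal library size in MF replicate 1, 12590 in the other MF section and 7810 in HF replicate 1. Hcrt stood at 2370, 2763 and 1982 CPM. HF replicate 1 was lowest for both genes, by more for Pmch than for Hcrt. Fewer cells of a type in a spot, less RNA per cell and another level of cut cannot be told apart in such sums. With 1 HF section, these values have no replicate check between the diets.

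The rule has a threshold, and the spots on either side of it were close. In MF replicate 1 the last spot inside had a score of 3.047 (Pmch 193 and Hcrt 1.29 UMIs per 10000) and the first outside 3.041 (197 and 1.21). In MF replicate 2 the last inside scored 2.577 (75.6 and 1.26) and the first outside 2.566 (169 and 0). In HF replicate 1 the last inside scored 2.361 (5.46 and 16.4) and the first outside 2.36 (31.7 and 2.44). The top scores were 5.158, 4.697 and 4.235.

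The member spots were not scattered over the sections. Between 23 and 30 of the 50 formed 1 group of touching spots in each section (26 in MF replicate 1, 30 in the other MF section and 23 in HF replicate 1), and 29, 31 and 36 had at least 2 adjacent member spots. When spots up to 5 spot steps apart were joined, the members fell into 3 groups in MF replicate 1, whose 2 largest held 42 and 7 spots, and into 2 groups of 42 and 8 spots in MF replicate 2 and of 30 and 20 in HF replicate 1. A spot step is the distance between the centres of adjacent spots. On the map each section had a larger group low on the array and a smaller one nearer its right edge. The array position, which the spot barcode encodes, was shared by 1 member of the MF sections, by 6 of MF replicate 1 and HF replicate 1, and by 4 of MF replicate 2 and HF replicate 1.

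**Figure D1:**
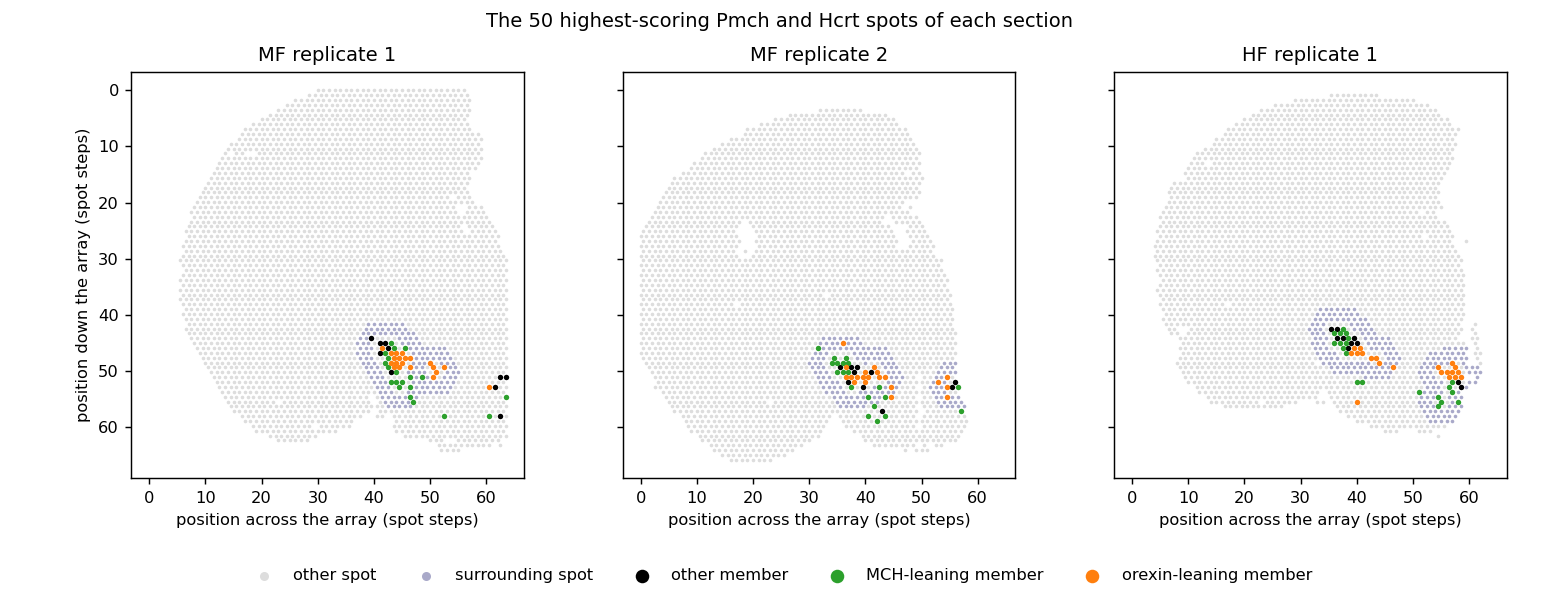
Positions of the kept spots of 3 sections on the array, in spot steps across and down. Member spots are coloured orange where they leaned to Hcrt (20 a section), green where they leaned to Pmch (20 a section) and black otherwise, and the surrounding spots used for comparison are blue-grey; the members lie low on the array, in a larger group and a smaller group to its right.

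Pmch and Hcrt fell steeply with distance from the member spots that had at least 2 adjacent members. In MF replicate 1 the Pmch level was 172 UMIs per 10000 in those members, 51.8 in non-member spots 1 step away, 23.4 at 3 to 4 steps and 1.78 at 17 steps or more. In MF replicate 2 it was 128, 19.5, 11.7 and 1.14 over the same distances, and in HF replicate 1 64.9, 16.8, 7.18 and 0.413. Hcrt fell from 29.4 to 0.203, from 26.6 to 0.106 and from 19.7 to 0.042 UMIs per 10000 between the same members and the farthest spots. Even those farthest spots stood above HF replicate 2, whose whole section had 0.00706 Pmch and 0.00235 Hcrt UMIs per 10000. The neighbours of the members therefore carried Pmch and Hcrt themselves, and comparisons with them are between more and less of both.

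The members held 27% of the Pmch UMIs of MF replicate 1 (26.6% to 27.3%, exact 95% binomial interval, which covers counting error only), 42.9% in the other MF section (42.2% to 43.5%) and 42.6% in HF replicate 1 (41.7% to 43.5%). Their share of the Hcrt UMIs was 33.5% (32.4% to 34.6%), 57.9% (56.2% to 59.5%) and 54.3% (52.2% to 56.4%). In all 3 sections the share was larger for Hcrt than for Pmch. The ratio of Pmch to Hcrt UMIs was 7.25, 4.56 and 3.94 over the members and 8.76, 10.7 and 9.84 in the spots 17 steps or more away; whether free RNA gave the distant UMIs was not tested. Moran's I, a score of how far neighbouring spots have like values, was 0.807 for Pmch in MF replicate 1, 0.617 in the other MF section and 0.703 in HF replicate 1, against 0.0145 in HF replicate 2. For Hcrt it was 0.613, 0.491 and 0.603, against 0.000506.

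**Figure D2:**
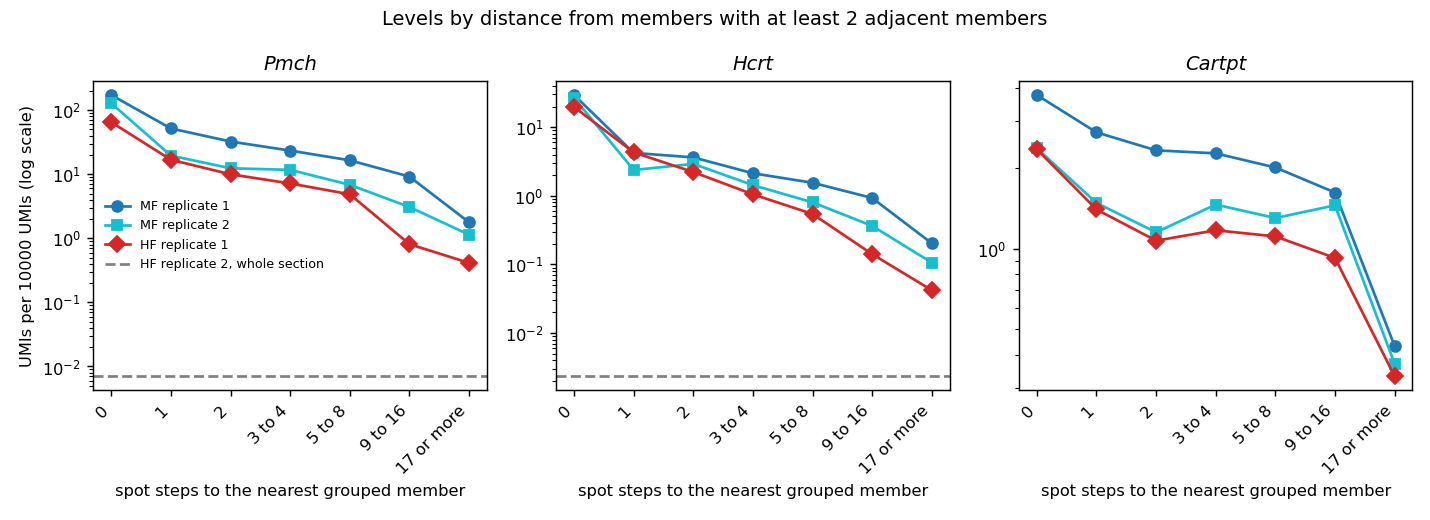
Levels of Pmch, Hcrt and Cartpt in UMIs per 10000 UMIs (log scale) against the distance in spot steps to the nearest member with at least 2 adjacent members, by section, where 0 is those members and the other points are non-member spots. The dashed line is the whole of HF replicate 2. Pmch and Hcrt chose the members, so their peak there follows from the rule; Cartpt, which did not, also fell with distance.

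Both peptides are released from their precursors by enzymes that cut at pairs of basic residues, so the stretches that encode the peptides are shown with the codons of those pairs; the enzymes return in the results below. Pmch (ENSMUSG00000035383) lies at chr10:88091072-88092375 on the plus strand of GRCm38, and the MCH stretch at chr10:88091871-88092186, where it starts in coding exon 2 and ends in coding exon 3 of 3, so that the printed bases are joined over an intron. Hcrt (ENSMUSG00000045471) lies at chr11:100761069-100762931 on the minus strand, and the orexin-B stretch at chr11:100761890-100761988, within coding exon 2 of 2. Capitals mark the 57 and 84 bases of the peptides themselves, read from the RefSeq genome sequence of GRCm38.p6, and lower case marks the flanking codons of the cleavage sites. In orexin-B the last lower-case codons are those of a glycine, which the enzyme encoded by Pam turns into the amide end of the peptide, and of a basic pair.
MCH: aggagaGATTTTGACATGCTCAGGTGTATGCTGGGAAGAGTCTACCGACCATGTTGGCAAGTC
orexin-B: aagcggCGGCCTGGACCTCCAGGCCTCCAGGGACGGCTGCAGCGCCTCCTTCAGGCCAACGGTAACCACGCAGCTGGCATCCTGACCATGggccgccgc

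The member spots were first compared with all other kept spots of the same section, which asks what sets this tissue apart from the rest of the section. UMIs were summed per section over the 50 members and over the others, and the sums were compared with the quasi-likelihood test of edgeR with section as a block (3 sections), leaving out Pmch and Hcrt. Of 14119 genes tested, 1282 were higher in the members (9.08%) and 1561 lower (11.1%), at a Benjamini-Hochberg adjusted p under 0.05 and at least 1.2-fold. The gene with the largest rise among those with at least 30 CPM in the members of every section was Cartpt, which encodes the CART peptide and is known to be made by many MCH neurons. Its level in the members was 568 CPM in MF replicate 1, 523 in the other MF section and 383 in HF replicate 1, and in the other spots 80.8, 74.4 and 62.1 CPM. The members lay above the other spots in all 3 sections without overlap (log2 fold change 2.74, SE 0.074, adjusted p = 1.94e-289).

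Dlk1, an imprinted gene of a Notch-related membrane protein, stood at 251, 386 and 393 CPM in the members against 45.7, 58.5 and 57.7 in the other spots (log2 fold change 2.62). Calcr, the calcitonin receptor, stood at 65.7, 80.8 and 83.4 CPM against 10.3, 15.5 and 14.1 (2.51). Otp, a homeodomain factor of hypothalamic development, stood at 41.1, 54.3 and 65.4 CPM against 10.6, 15 and 11.9 (2.05). For each of these genes every member sum was above every sum of other spots. The neuropeptide genes Nts (neurotensin, 2.22) and Gal (galanin, 2.06), the secreted glutathione peroxidase Gpx3 (2.34), Arhgap36 (2.30) and Pgr15l (2.32) were higher as well. Tacr3, the receptor for neurokinin B, had a larger change at a lower level (54.4, 36.2 and 29.4 CPM against 4.77, 3.79 and 4.07; 3.26).

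Markers of other regions were among the genes lowest in the members. Ttr, which encodes the transthyretin of the choroid plexus, stood at 421, 312 and 270 CPM in the members against 2410, 2279 and 3407 in the other spots (log2 fold change -2.98). Of 12 cortex and hippocampus markers, 11 were lower and none higher, with a median log2 fold change of -2.18 against -0.0119 over all genes tested. Neurod6, a factor of cortical excitatory neurons, changed by -2.50. Of 12 thalamus markers, 10 were lower (median -1.24). Imprinted and hypothalamus-rich genes went the other way, with 21 of 25 higher, none lower and 1 not tested (median 1.40 of the 24 tested). This list was chosen with earlier results of these data known, which favours such a direction.

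Within the lists of genes known from orexin and MCH neurons, 7 of 13 orexin neuron genes were higher and 1 lower, and 7 of 13 MCH neuron genes were higher and 2 lower. The lower orexin neuron gene was Lhx9, a LIM-homeodomain factor needed for orexin neurons, which the thalamus and pretectum also express (15.4, 22.3 and 18 CPM in the members against 28.7, 30.3 and 42.3; log2 fold change -0.87), and its call was lost without the section block, with 25 members (-0.50) and when thinned (-0.08). Qrfp, a neuropeptide gene on the orexin list, had no UMI in the members of any section. Zic1, on the MCH list, stood at 70.9, 76.6 and 57.2 CPM in the members against 124, 131 and 174 in the other spots. The secretogranin gene Scg2, which encodes a core protein of dense-core granules and stands on both lists, rose from 275, 288 and 312 CPM to 1077, 1146 and 981 (1.85). Pcsk1, a prohormone convertase that cuts peptide precursors, rose from 46.2, 45.8 and 48.6 CPM to 134, 135 and 110 (1.42).

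Of 17 transmitter markers, 7 were higher in the members, 4 lower and 2 not tested. Gad2, a GABA-synthesising enzyme, was higher in the members (431, 450 and 468 CPM against 251, 257 and 254; log2 fold change 0.79), as was Slc32a1, the vesicular GABA transporter (0.93). Slc17a6, the vesicular glutamate transporter of hypothalamus and thalamus, did not pass the test (144, 237 and 237 CPM against 159, 184 and 219), nor did Gad1. Slc17a7, the vesicular glutamate transporter of the cortex, was lower (420, 406 and 487 CPM against 1929, 1782 and 1734; -2.09). The receptors of the peptides themselves were at low levels. Hcrtr1 had 8.22, 9.75 and 3.27 CPM in the members against 2.89, 2.3 and 2.88, Hcrtr2 had 9.25, 15.3 and 11.4 against 5.77, 5.9 and 7.57, and both passed the test (adjusted p = 0.0133 and 0.0445 by edgeR's quasi-likelihood test). Hcrtr1 and Hcrtr2 lost their call under 6 and 9 of 11 alternatives. Mchr1, the MCH receptor, did not pass (17.5, 18.1 and 29.4 CPM against 24.3, 24.5 and 26.9).

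For a comparison closer to the members' own region, they were next compared with 300 hypothalamus-rich spots of each section, those non-member spots with the highest mean level of Dlk1, Peg10, Zcchc12, Hap1, Ahi1 and Baiap3. These 6 genes chose the comparison spots and got no test, as Pmch and Hcrt did not. By the same score, 26, 32 and 28 of the 50 members would themselves rank among the 350 highest-scoring spots. Of 11927 genes tested, 602 were higher in the members (5.05%) and 416 lower (3.49%). Under library-size scaling without TMM these counts became 419 and 580, so the balance of higher to lower calls depended on the scaling. DESeq2, which differs in test and filter as well, gave 196 and 57. Without the section block they were 240 and 121.

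Myelin genes were the most uniform difference. All 13 oligodendrocyte markers were higher in the members, with a median log2 fold change of 1.23 against -0.00562 over all genes tested. Mog, a protein of the outer myelin surface, stood at 603, 549 and 507 CPM in the members against 201, 246 and 244 in the hypothalamus-rich spots (1.35, SE 0.071). The summed level of the list was 29610, 28540 and 25400 CPM in the members, 12010, 13070 and 13730 in the hypothalamus-rich spots and 36070, 34590 and 26480 in the surrounding spots described below, with Mbp the most abundant. In all other spots of the sections it was 26360, 27540 and 21790 CPM, and none of the 13 markers was called between those and the members (median 0.104). The members were thus near the level of their sections, and the hypothalamus-rich spots were low. None of the 13 markers was at 0, and the part of myelin in the other differences from hypothalamus-rich spots was not tested. Ugt8a (1.37) and Fa2h (1.43), enzymes of myelin lipid synthesis, and Nipal4 (1.78) and Erbb3 (1.35) were among the largest rises.

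Among genes with at least 30 CPM in the hypothalamus-rich spots of every section, Agrp and Pomc fell most in the members. Agrp, a peptide gene of hunger-promoting arcuate neurons, stood at 11.3, 13.9 and 18 CPM in the members against 195, 174 and 178 in the hypothalamus-rich spots (log2 fold change -3.66, SE 0.17). Pomc, the precursor of melanocortins, stood at 13.4, 13.9 and 11.4 CPM against 123, 131 and 80.2 (-3.06). Npy (-2.13), Ghrh (-1.79), Six3 (-2.03), Irs4 (-1.53) and Esr1 (-1.22) were lower too. Rax, a factor of tanycytes, had no UMI in the members of any section and 10.9, 11.1 and 9.63 CPM in the hypothalamus-rich spots, at least 8.15-fold higher there with 3 UMIs over the members as the floor. Of 10 tanycyte and ependymal markers, 7 were lower and none higher (median -1.02). Hdc, the histamine-synthesising enzyme of the tuberomammillary nucleus, stood at 37, 34.8 and 21.3 CPM against 61.1, 65.1 and 105 (-1.14).

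Among hypothalamic peptides, 5 of 35 were higher, 8 lower and 11 not tested. Nts was higher (98.6, 87.8 and 124 CPM against 64.7, 53.6 and 51; log2 fold change 0.89), while Sst was lower (366, 531 and 600 CPM against 686, 987 and 857; -0.71) and Gal was lower by less (-0.51). Cartpt stood at 568, 523 and 383 CPM against 395, 321 and 247 (0.68), but changed by -0.09 when only members with at least 2 adjacent members were used, which ended its call. Of 13 MCH neuron genes, 5 were higher and 1 lower, and of 13 orexin neuron genes, 3 were higher and 2 lower. Tacr3 (54.4, 36.2 and 29.4 CPM against 12.3, 10.6 and 10.2; 1.96), Otx1 (16.4, 12.5 and 8.18 against 3.13, 2.9 and 4.53; 1.97) and Zic1 (0.85) led the first list. Lhx9 (15.4, 22.3 and 18 CPM against 6.42, 9.89 and 8.5; 1.24) led the second.

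The closest comparison was with the surrounding spots, the non-member spots 2 to 4 spot steps from the nearest member that had at least 2 adjacent members (150, 151 and 213 spots). This set was fixed by position, so no gene but Pmch and Hcrt took part in choosing it. Of 11137 genes tested, 97 were higher in the members (0.871%) and 44 lower (0.395%). Cartpt again had the largest rise among genes with at least 30 CPM, at 568, 523 and 383 CPM in the members against 229, 137 and 114 in the surrounding spots (log2 fold change 1.61, SE 0.077, adjusted p = 4.73e-21 by edgeR's quasi-likelihood test). Tacr3 stood at 54.4, 36.2 and 29.4 CPM against 12.3, 9.8 and 8.45 (2.00, SE 0.23), and Otx1 at 16.4, 12.5 and 8.18 against 5.12, 3.43 and 2.94 (1.69), where Otx1 kept its call under 5 of 9 alternatives. These 3 genes are on the list of MCH neuron genes, of which 5 of 13 were higher, none lower and 2 not tested (median 0.414 against 0.00163 over all genes tested). In each, every member sum was above every surrounding sum.

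Some orexin neuron genes were also higher in the members than in the surrounding spots. Pdyn, which encodes the prodynorphin that orexin neurons are known to make, stood at 41.1, 69.7 and 24.5 CPM in the members against 14.3, 17.2 and 10.6 (log2 fold change 1.66, SE 0.21), but lost its call under DESeq2 and with 100 members (0.33). Lhx9 stood at 15.4, 22.3 and 18 CPM against 6.82, 10.8 and 7.71 (1.15), and Plagl1, an imprinted zinc finger factor, at 94.5, 130 and 101 CPM against 69.6, 66.2 and 72.7 (0.64). In all, 5 of 13 orexin neuron genes were higher, none was lower, 7 were not called and 1 was not tested (median 0.584). Lhx9 passed narrowly (adjusted p = 0.042 by edgeR's quasi-likelihood test) and kept its call under 3 of 11 alternatives. Plagl1 kept its call under 7 of 12, and stood higher in the hypothalamus-rich spots (152, 159 and 145 CPM) than in the members.

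Of 22 peptide processing and granin genes, 8 were higher in the members, none lower, 13 not called and 1 not tested (median 0.235). Against all other spots of the sections, 9 of the same genes were higher and 5 lower. Against the hypothalamus-rich spots 3 were higher (Pcsk1, Pcsk2 and Scg2), none lower and 18 not called (median 0.0751). Resp18 (1173, 1032 and 903 CPM), Ptprn (645, 684 and 644) and Pam (552, 612 and 566) stood higher in those spots than in the members. Pcsk1 stood at 134, 135 and 110 CPM in the members against 62.4, 54.4 and 76 in the surrounding spots (SE 0.12, adjusted p = 1.36e-07 by edgeR's quasi-likelihood test). Pcsk2, a second prohormone convertase, changed less, from 281, 332 and 334 CPM to 398, 383 and 363 (0.31), and kept its call under 5 of 12 alternatives. Scg2 stood at 1077, 1146 and 981 CPM against 534, 571 and 590 (0.94, SE 0.053). Its member sums were separate from the surrounding sums, as were those of Pcsk1. Pam, the amidating enzyme (0.30), Qpct, which forms the cyclised first residue that orexin-A carries (0.67), and the granule proteins Vgf (0.35), Ptprn (0.37) and Resp18 (0.41) also rose, of which Pam kept its call under 6 of 12 alternatives, Vgf under 7, Qpct under 9, Ptprn under 10 and Resp18 under 11. Cpe, the carboxypeptidase that trims basic residues after cleavage, was abundant on both sides and did not pass (1238, 1197 and 1447 CPM against 1256, 1287 and 1525).

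Of 35 hypothalamic peptides, 5 were higher in the members, 2 lower and 11 not tested. This list shares Cartpt with the MCH neuron genes, so the lists overlap. Of 48 metabolic and neuropeptide receptors 3 were higher, 1 lower and 14 not tested. The lower peptides were Adcyap1 (30.8, 26.5 and 52.3 CPM against 62.4, 66.2 and 51; log2 fold change -0.75), with HF replicate 1 apart from the MF sections, and Cck (-0.39). Tac2, which encodes neurokinin B, the ligand of the receptor encoded by Tacr3, stood at 243, 194 and 150 CPM against 124, 93.6 and 76.7 (log2 fold change 1.01). Cbln1, a synapse-organising secreted protein, stood at 220, 167 and 119 CPM against 90.1, 74 and 73.8 (1.12). Adra2a, an inhibitory adrenergic receptor, stood at 163, 146 and 146 CPM against 100, 81.9 and 80.4 (0.80). All sums of members were above all surrounding sums for Tac2, Cbln1 and Adra2a. Gpr83 (0.96), the potassium channel subunit Kcng3 (1.07), C1ql3, a secreted protein of the C1q family (0.84), Gpx3 (0.88) and Nts (0.57) were higher too. Nucb2, the precursor of nesfatin-1, passed at 0.54 and kept its call under 4 of 12 alternatives. Of the lower peptides, Adcyap1 kept its call under 6 of 12 and Cck under 7. Of 25 imprinted and hypothalamus-rich genes, 8 rose, none fell and 1 was not tested, among them Nnat (1032, 1336 and 1382 CPM against 751, 860 and 1038; 0.51) and Dlk1 (0.56). Against the hypothalamus-rich spots, none of the list was higher, 8 were lower and 7 were not tested (median -0.227), but 6 genes of this kind had chosen those spots, which favours such a direction.

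**Figure D3:**
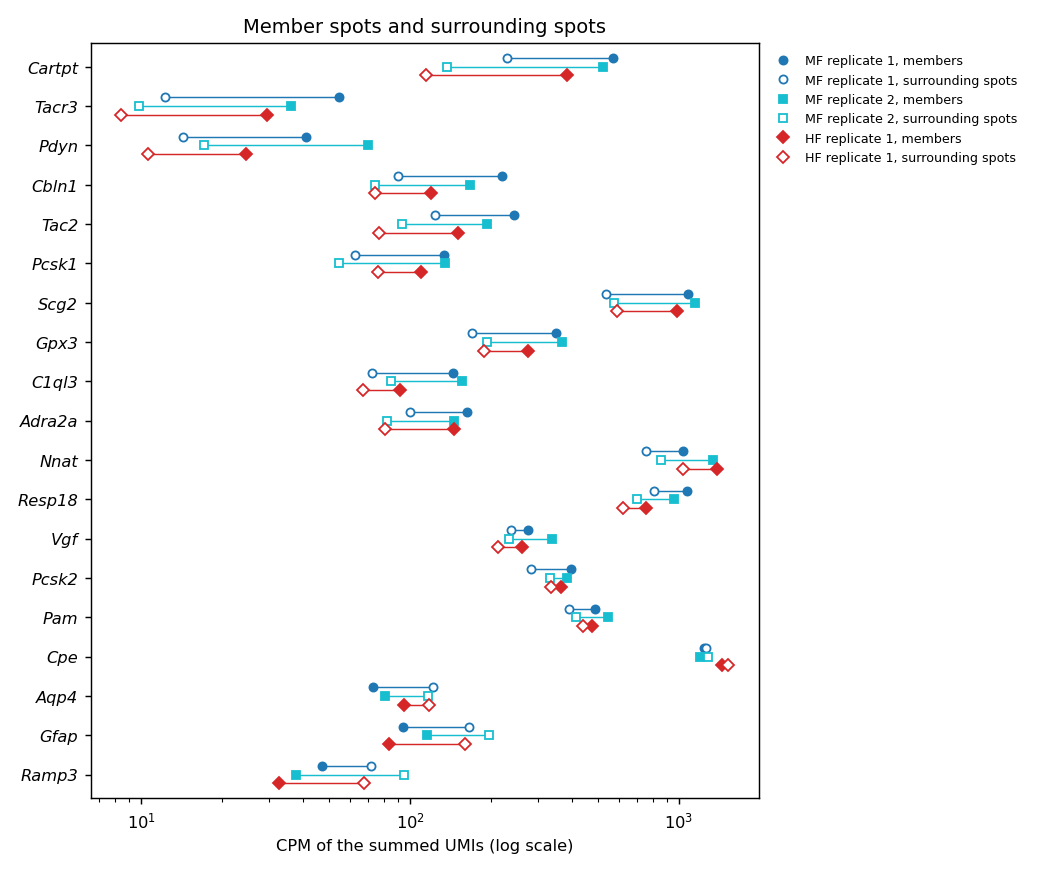
CPM of summed UMIs (log scale) of 19 genes in the member spots (filled) and the surrounding spots (open) of each section, joined by a line. The points of Cartpt, Tacr3, Pdyn and Scg2 are separate between members and surroundings in all sections, those of Cpe overlap, and Gfap and Ramp3 lie lower in the members.

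Some markers of astrocytes and of the thalamus were lower in the members. Gfap, the filament protein of astrocytes, stood at 94.5, 116 and 83.4 CPM in the members against 166, 197 and 160 in the surrounding spots (log2 fold change -0.81), and Aqp4, their water channel, at 72.9, 80.8 and 94.9 against 122, 117 and 118 (-0.53). Of 11 astrocyte markers, 3 were lower and none higher, and the summed level of the list was 3428, 3523 and 4313 CPM in the members against 3877, 3857 and 4790, with Slc1a2 the most abundant gene and no marker at 0. Of 13 oligodendrocyte markers 1 was lower, Opalin (-0.39). The part of glia in the differences to the surroundings was not tested. Prkcd and Rora, on the thalamus list, changed by -0.52 and -0.36. Ramp3, a partner protein of the calcitonin receptor family, was lower (47.3, 37.6 and 32.7 CPM against 71.3, 94.6 and 67.6; -0.93) while Calcr itself was higher (0.50). Calcr and Rora kept their call under 4 of 12 alternatives, Opalin under 6, Aqp4 under 7, Prkcd under 8 and Ramp3 under 9.

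Among the 12 genes with the largest falls were also genes with levels that differed between the sections. Eln, which encodes elastin, stood at 34.9, 26.5 and 144 CPM in the members against 47.1, 35.3 and 241 (log2 fold change -0.62), with HF replicate 1 highest on both sides. Col1a2 (-0.68), Igfbp2 (-0.69) and Ptgds (-0.53) were likewise highest in HF replicate 1 on both sides. Without HF replicate 1, Eln, Col1a2 and Igfbp2 lost their call, and with 25 members Eln turned to 0.228.

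Of 17 transmitter markers, none was higher in the members than in the surroundings, 1 was lower and 8 were not tested. The lower one was Hdc, at 37, 34.8 and 21.3 CPM against 55.3, 38.2 and 76 (log2 fold change -0.79). It kept its call under 7 of 12 alternatives and lost it, among others, without HF replicate 1. Slc17a6 stood at 144, 237 and 237 CPM against 168, 240 and 219, Slc32a1 at 61.6, 75.2 and 85 against 76.8, 72.1 and 80.8, and Gad1 at 59.6, 54.3 and 34.3 against 62.4, 34.8 and 40.4, and these did not pass the test. Of the 3 MCH and orexin receptor genes none passed either, with Hcrtr2 at 9.25, 15.3 and 11.4 CPM in the members against 16.7, 15.2 and 22.4. Their counts were low on both sides. The numbers of calls depended on the model: without the section block 9 genes were higher and 1 lower, with DESeq2 33 and 2, and with spots thinned to 5000 UMIs 18 and 1.

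The member spots also differed among themselves. Over the 50 members of a section, the Pmch and Hcrt levels ran in opposite directions, with Spearman correlations of -0.62, -0.78 and -0.85 (n = 50 spots each); a rule that takes high sums of both favours such a relation, so it is a description. Hcrt exceeded Pmch in 10, 13 and 15 members. To compare the 2 ends, the 20 members with the highest and the 20 with the lowest difference ln(1 + Hcrt) - ln(1 + Pmch), in UMIs per 10000, were called orexin-leaning and MCH-leaning. The orexin-leaning spots had a median Hcrt level of 37.7, 49.2 and 20.8 UMIs per 10000 and the MCH-leaning ones 2.59, 1.47 and 1.65. The median Pmch level was 41.7, 16.2 and 9.31 in the first and 289, 199 and 175 in the second, so Pmch was present at both ends.

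Spots of 1 kind tended to touch their own kind. Of the 20 orexin-leaning spots of a section, 16, 12 and 18 touched another orexin-leaning spot and 8, 5 and 3 touched an MCH-leaning spot. Of the 20 MCH-leaning spots, 12, 9 and 18 touched another of their kind and 7, 6 and 2 an orexin-leaning spot. The separation was sharpest in HF replicate 1. Median depth was 20713.5, 13781 and 13042 UMIs in the orexin-leaning spots and 19632.5, 12251 and 8045 in the MCH-leaning ones.

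Of 6824 genes tested between the leaning sets, 28 were higher in the orexin-leaning spots (0.41%) and 14 in the MCH-leaning spots, that is, lower in the first (0.205%). Pdyn led, at 79.8, 143 and 38.7 CPM in the orexin-leaning spots against 13.3, 11.3 and 14.4 in the MCH-leaning spots (log2 fold change 2.74, SE 0.38, adjusted p = 3.59e-10 by edgeR's quasi-likelihood test). C1ql3 stood at 252, 317 and 132 CPM against 63.7, 52.8 and 57.4 (2.03, SE 0.21), and Plagl1 at 139, 216 and 165 against 61.1, 49 and 43.1 (1.68, SE 0.23). The ranges of the leaning sets did not overlap for any of these. Nptx2, a neuronal pentraxin that gathers glutamate receptors at synapses, stood at 72.1, 66.2 and 45.2 CPM against 26.5, 18.9 and 9.57 (1.66), and kept its call under 3 of 8 alternatives. Of 13 orexin neuron genes, 5 were higher in the orexin-leaning spots, none lower and 4 not tested (median 1.40 against -0.00273 over all genes tested). They were Pdyn, Plagl1, Nptx2, Pcsk1 and Scg2.

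Cartpt was the gene most strongly tied to the MCH end, at 288, 160 and 71 CPM in the orexin-leaning spots against 958, 1041 and 942 in the MCH-leaning spots (log2 fold change -2.43, SE 0.12, adjusted p = 9.37e-88 by edgeR's quasi-likelihood test). Tacr3 stood at 28.3, 10.5 and 19.4 CPM against 95.6, 71.7 and 47.8 (-1.85). Zic1, a zinc finger factor, stood at 33.5, 48.8 and 48.4 CPM against 106, 117 and 86.1 (-1.28), and Klhl13, an adaptor of a ubiquitin ligase, at 111, 153 and 145 against 300, 309 and 321 (-1.20). For these genes all MCH-leaning sums were above all orexin-leaning sums. Wnt2b (-1.47), Cd302 (-1.43), Parm1 (-0.91), Tmem158 (-0.90), Rcn1 (-0.88) and Pcdh8 (-0.82) went the same way, but each lost its call under most of the alternatives. Of 13 MCH neuron genes, 3 were on the MCH side (Cartpt, Tacr3 and Zic1), 1 on the orexin side (Scg2) and 4 not tested (median -0.452). Nucb2 did not pass (74.6, 62.8 and 58.1 CPM against 95.6, 67.9 and 86.1).

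The prohormone convertases split between the ends. Pcsk1 stood at 242, 223 and 148 CPM in the orexin-leaning spots against 66.4, 71.7 and 67 in the MCH-leaning spots (log2 fold change 1.63, SE 0.21), while Pcsk2 stood at 327, 352 and 326 CPM against 523, 411 and 431 (-0.46, SE 0.12). The first was higher and the second lower in the orexin-leaning spots of all 3 sections, and Pcsk2 kept its call under 2 of 9 alternatives. Scg2 stood at 1810, 1869 and 1223 CPM against 565, 611 and 718 (1.40). Vgf (358, 429 and 300 CPM against 202, 272 and 220; 0.67) and Ptprn (0.43) followed Scg2, and kept their call under 5 and 3 of 9 alternatives. Over the peptide processing and granin list, 4 of 22 genes were on the orexin side, 1 on the MCH side and 3 not tested.

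Further genes on the orexin side were Shisa6 (log2 fold change 1.39), a partner of AMPA-type glutamate receptors, Nxph4 (1.32), a secreted ligand of neurexins, Arhgap36 (1.09) and the peptide genes Sst (0.80) and Tac2 (0.74). Of these, Shisa6 and Nxph4 kept their call under 4 of 8 alternatives and Tac2 under 3 of 9. Dlk1 stood at 360, 544 and 516 CPM against 194, 226 and 268 (1.03, SE 0.13), and Gnas at 3351, 3584 and 3026 against 2554, 2802 and 2631 (0.32). Both are imprinted genes, and of the 25 imprinted and hypothalamus-rich genes 6 were on the orexin side, none on the MCH side and 4 not tested. Of these 6, Dlk1 kept its call under all 9 alternatives and Plagl1 under 8, but Gnas under 4, Nnat under 3, Hap1 under 2 and Zcchc12 under 1. Neither Slc17a6 (160, 237 and 268 CPM against 122, 241 and 163) nor Gad1 (61.8, 38.3 and 25.8 against 63.7, 71.7 and 52.6) passed. None of the 13 oligodendrocyte or 11 astrocyte markers differed past the test, with medians of -0.0793 and -0.0184.

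**Figure D4:**
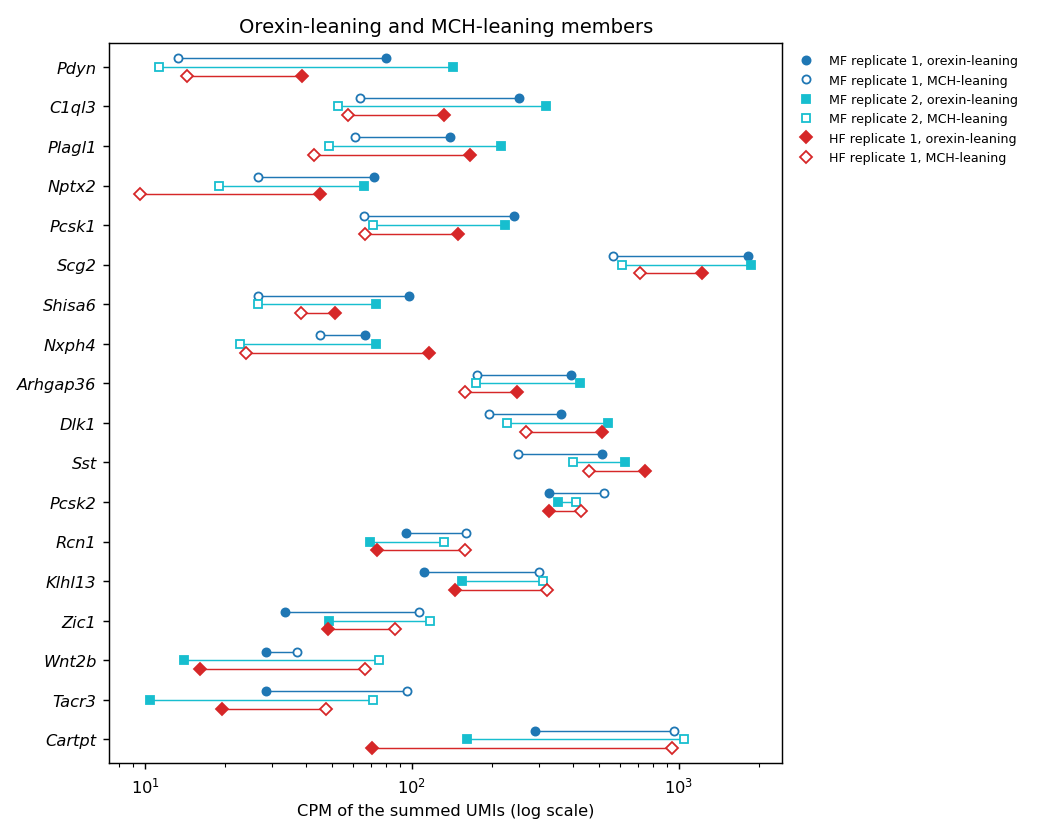
CPM of summed UMIs (log scale) of 18 genes in the 20 orexin-leaning (filled) and 20 MCH-leaning (open) members of each section, joined by a line. Pdyn, C1ql3, Plagl1, Pcsk1, Scg2 and Dlk1 lie higher in the orexin-leaning spots of all sections, and Cartpt, Tacr3, Zic1 and Klhl13 in the MCH-leaning spots.

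Over single members, correlations with the chosen genes differed between genes and sections. Scg2, with a UMI in 49 or 50 of the 50 members of each section, had Spearman correlations with Hcrt of 0.73, 0.67 and 0.4 and with Pmch of -0.41, -0.51 and -0.3 in MF replicate 1, MF replicate 2 and HF replicate 1. Cartpt, with a UMI in 50, 45 and 36 members, had correlations with Pmch of 0.37, 0.22 and 0.48 and with Hcrt of -0.49, -0.34 and -0.47. Tacr3 and Zic1 had correlations with Pmch of 0.41 and 0.5 in MF replicate 1 and of 0.45 and 0.48 in MF replicate 2. In HF replicate 1 they were 0.036 and 0.0021. All are over 50 spots that share a section and a scale, and are descriptions. The numbers of calls between the ends rested on few genes: DESeq2 called 4 higher and 1 lower, and leaving out any 1 section left 14 to 16 higher and 4 to 9 lower.

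Between the diets, the member spots of HF replicate 1 were set beside those of both MF sections. With 1 HF section there is no test, and a gene was counted when its CPM in HF replicate 1 was at least 2-fold from each MF section in 1 direction, among 9120 genes with at least 20 CPM in any of the 3. By this rule 96 genes were higher (1.05%) and 69 lower (0.757%) in HF replicate 1. A gene could enter through its highest section alone, so the change itself helped decide which genes were counted. The median log2 ratio of HF replicate 1 over the mean of the MF sections was 0.0208 over all genes compared, with 5 CPM added to both. The members of HF replicate 1 were shallower, with a median of 10547.5 UMIs a spot against 20184.5 and 14239, and the counts were 328 and 319 after thinning to 5000 UMIs a spot and 43 and 9 with 100 members a section, a change whose cause was not tested.

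Dcn, which encodes the matrix protein decorin, led the higher side and had 17 UMIs in the members of HF replicate 1 (9.9 to 27.2, exact 95% Poisson interval, which covers counting error only) against 2 in MF replicate 1 (0.242 to 7.22) and 2 in MF replicate 2 (0.242 to 7.22). Eln had 88 UMIs (70.6 to 108) against 34 (23.5 to 47.5) and 19 (11.4 to 29.7), that is 144 CPM against 34.9 and 26.5. The intervals of HF replicate 1 lay above those of the MF sections for both genes. In the surrounding spots Eln stood at 241 CPM in HF replicate 1 against 47.1 and 35.3, and Dcn at 25 against 10.9 and 5.88. Prelp (39.2 CPM against 4.11 and 12.5), Clec3b (29.4 against 4.11 and 8.36), Aasdh (24.5 against 5.14 and 4.18) and Stab1 (40.9 against 7.19 and 13.9) completed the 6 leading genes. Of these 6, all but Eln reached 20 CPM in the members of HF replicate 1 only. The surrounding spots had Prelp at 23.9 CPM in HF replicate 1 against 8.53 and 12.7, and Clec3b at 29.7 against 13.65 and 17.2. Stab1 stood at 23.9 there against 11.6 and 14.2, and Aasdh at 8.81 against 7.17 and 9.8. HF replicate 1 was thus highest there too for all of the 6 but Aasdh.

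On the lower side, Ptger3, a prostaglandin E receptor, had 2 UMIs in the members of HF replicate 1 (0.242 to 7.22) against 25 (16.2 to 36.9) and 16 (9.14 to 26), that is 3.27 CPM against 25.7 and 22.3. Npw, the gene of neuropeptide W, had 10 UMIs (4.8 to 18.4) against 53 (39.7 to 69.3) and 39 (27.7 to 53.3), that is 16.4 CPM against 54.4 and 54.3. For Npw the surrounding spots had the same order, at 25.7 CPM in HF replicate 1 against 54.3 and 62.3. Ptger3 in the surrounding spots stood at 11 CPM against 11.9 and 16.2, so that the gap there was small. Svbp (9.81 CPM against 33.9 and 55.7), Bclaf3 (3.27 against 25.7 and 16.7), Gorab (3.27 against 23.6 and 13.9) and Lrif1 (4.91 against 23.6 and 19.5) were the others of the 6 leading genes. In the surrounding spots Svbp stood at 34.5 CPM in HF replicate 1 against 33.8 and 36.8, and Bclaf3 at 22.4 against 17.1 and 17.65. Gorab stood at 16.9 there against 13 and 16.7, and Lrif1 at 18.4 against 23.5 and 17.2. For none of these was HF replicate 1 the lowest there.

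None of the genes compared on the orexin neuron, MCH neuron, peptide processing or imprinted lists passed the rule between the diets, which 1.05% and 0.757% of all genes passed upward and downward. Pdyn came near, with 15 UMIs in HF replicate 1 (8.39 to 24.7) against 40 (28.6 to 54.5) and 50 (37.1 to 65.9), or 24.5 CPM against 41.1 and 69.7. The gap between these raw intervals is in part the lower depth of HF replicate 1. Of the 3 MCH and orexin receptors 1 could be compared. Of 48 metabolic and neuropeptide receptors, 25 could be compared and 1 was higher, Npy1r (21.3 CPM against 7.19 and 6.97). Npy1r reached 20 CPM in HF replicate 1 only, and in the surrounding spots HF replicate 1 was lowest (19.5 CPM against 25.6 and 21.1). Lists of cell type markers had other medians, and their part in the result was not tested. Of 10 tanycyte and ependymal markers 3 could be compared. Of these 2 were higher, Foxj1 (31.1 CPM against 7.19 and 15.3) and Tm4sf1 (44.2 against 19.5 and 16.7). Both reached 20 CPM in HF replicate 1 only, so the filter that let them in favoured a rise. Of 8 microglia markers 7 could be compared and 1 was higher, Cx3cr1 (60.5 against 26.7 and 27.9). In the surrounding spots Foxj1 stood at 13.2 CPM in HF replicate 1 against 15.7 and 13.7, and Cx3cr1 at 40.8 against 33.8 and 42.2. Tm4sf1 stood at 33.8 there against 25.9 and 25.5. The median was 1.09 over the 3 tanycyte and ependymal markers compared, a value that this filter favours, and 0.471 for microglia markers. It was 0.49 over 6 vascular markers and -0.331 over 13 oligodendrocyte markers, and no gene of the last 2 lists passed. In the members the summed level was 101, 118 and 170 CPM for tanycyte and ependymal markers (most abundant Tm4sf1, with Rax at 0), 421, 390 and 569 for microglia markers (none at 0) and 268, 307 and 409 for vascular markers (most abundant Cldn5, none at 0), each highest in HF replicate 1. Of the 12 orexin neuron genes with enough counts the median log2 ratio was -0.154, and of the 10 MCH neuron genes -0.126. Cartpt stood at 383 CPM in HF replicate 1 against 568 and 523, below both MF sections, and Scg2 at 981 against 1077 and 1146. Of 14 wake, clock and activity genes 11 could be compared and 2 passed, the immediate early genes Egr1 and Junb. Egr1 had 38 UMIs (26.9 to 52.2) against 21 (13 to 32.1) and 16 (9.14 to 26), and Junb stood at 47.4 CPM against 20.6 and 22.3 in the members and at 31.2 against 15.7 and 15.7 in the surrounding spots. Folate and one-carbon genes showed no value past 2-fold among the 14 of 27 that could be compared (median -0.0971). Between members and other spots of their sections, 1 of the 27 was higher, 3 were lower and 2 were not tested. Over all genes tested, 9.08% were higher and 11.1% lower. None of the folate genes tested was called against hypothalamus-rich spots (21 tested), surrounding spots (18 tested) or between the leaning sets (6 tested).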

How the data were processed

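Per the file headers, the authors made the UMI counts with Space Ranger 2.0.0; the deposited values are whole-number counts per feature and spot, without normalization, aligned to mm10 (GRCm38) as the labels give it. Space Ranger's deposited table also gives Moran's I, a score without further scaling, which was copied; its p-values were not used. Array positions were used as deposited. The members and gene lists were chosen with earlier results of these data known.

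Spots with under 500 UMIs or 250 genes were removed (4, 2, 5 and 7 in MF replicate 1, MF replicate 2, HF replicate 1 and HF replicate 2), which left 3598, 3314, 3197 and 3343. UMIs were summed per section and side, since spots are not replicates, and compared over 3 sections by edgeR 4.0.16 (R 4.3.3; quasi-likelihood test, TMM, filterByExpr, section as a block because both sums are of 1 animal). The genes that chose a set got no test, and Pmch and Hcrt were left out of library sizes. With 3 sections, the p-values rest on a spread that edgeR pools over many genes, so their size does not measure the spread between animals. The fits were tested on simulated data. Alternatives were DESeq2 1.42.0, no filter, no TMM, no block, thinning to 5000 UMIs, each section left out, 25 or 100 members, members with at least 2 adjacent members, 150 hypothalamus-rich spots, surroundings at 3 to 6 steps, and 12 members a leaning side. Named genes are Pmch, Hcrt, members of 23 lists, and the 12 largest changes in each direction among genes called with at least 30 CPM on the higher side in every section and 1 direction in all; between the diets, the 6 largest in each direction. Of the list genes, 4 are not among the 19465 features. Gene positions are from GENCODE vM21, and peptide stretches were found by translating its coding exons with Biopython.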

Additional observations from a re-analysis of the deposited data

Results flagged for a closer look

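Only genes named in the tested comparisons were examined, each in the comparison that names it, and 5 cases were found in which the ratio of a gene between member spots and comparison spots went 1 way in both MF sections and the other way in HF replicate 1. Against other spots, the log2 ratio of Mchr1 was 0.129 in HF replicate 1 and -0.477 and -0.434 in the MF sections. Against surrounding spots, Adcyap1 was at 0.0362 in HF replicate 1 (-1.02 and -1.32 in the MF sections) and Slc17a6 at 0.113 (-0.226 and -0.017). Hcrtr1 was at -0.932 there (0.198 and 0.408 in the MF sections), and Mchr1 at 0.325 (-0.0504 and -0.465). The counts of Hcrtr1 and Mchr1 were low on both sides. The difference between the diets was not tested for any of them, since 1 HF section held member spots.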

How the results depend on the processing

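Of 1657 values of named genes under alternatives, 1296 kept direction and side of the threshold, 340 lost their call, 5 gained one and 16 changed direction. Of the named genes called, 20 of 23 kept their call under every alternative against other spots, 22 of 39 against hypothalamus-rich spots, 5 of 45 against surrounding spots (Cartpt, Cbln1, Scg2, Gpx3 and Gfap) and 4 of 31 between leaning sets (C1ql3, Scg2, Dlk1 and Cartpt). Counts are given as higher and lower, and the cause was not tested for any change. With DESeq2 they were 851 and 945 against other spots, 196 and 57 against hypothalamus-rich spots, 33 and 2 against surrounding spots, and 4 and 1 between leaning sets. With spots thinned to 5000 UMIs they were 489 and 779, 145 and 57, 18 and 1, and 9 and 2, and between the diets 328 and 319. With 25 members, 842 were higher against other spots, 190 lower against hypothalamus-rich and 82 lower against surrounding spots, and 232 and 250 passed between the diets. With 100 members, 130 were lower against surrounding spots, and 43 and 9 passed between the diets. Surroundings at 3 to 6 steps gave 205 and 185, members with at least 2 adjacent members 20 lower against surrounding spots, and 12 members a side 17 and 5.

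Without the section block, which pairs the sums of 1 section, 240 and 121 genes were called against hypothalamus-rich spots, 9 and 1 against surrounding spots, and 9 and 4 between leaning sets.

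With 1 section left out, the counts ranged from 802 to 1098 and 1152 to 1394 against other spots, from 334 to 582 and 185 to 348 against hypothalamus-rich spots, from 61 to 113 and 21 to 63 against surrounding spots, from 14 to 16 and 4 to 9 between leaning sets, and from 227 to 284 and 139 to 183 between the diets, where 1 MF section was left. Slc17a6 against other spots ranged from -0.0651 to 0.207 with 1 section left out and was -0.0139 with 100 members. Against hypothalamus-rich spots, Cartpt was -0.0865 with members with at least 2 adjacent members. Against surrounding spots and with 1 section left out, Gad1 ranged from -0.105 to 0.255, Slc17a6 from -0.103 to 0.0541, Slc32a1 from -0.135 to 0.0768, Hcrtr1 from -0.121 to 0.303 and Mchr1 from -0.229 to 0.151. With 25 members, Penk was -0.0114, Gad1 -0.103, Slc17a6 0.00677, Mchr1 0.0828 and Eln 0.228. Slc32a1 was 0.333 with 100 members and 0.267 with surroundings at 3 to 6 steps. Spots with under 5000 UMIs dropped out when thinned, 2 of them members of HF replicate 1.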

Other observations

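Of 14 wake, clock and activity genes, 5 were lower in the member spots than in the other spots of their sections, 8 were not called and 1 was not tested, beside 11.1% lower over all genes tested. Egr1 stood at 21.6 CPM in the members of MF replicate 1, 22.3 in the other MF section and 62.2 in HF replicate 1, against 49.4, 58.6 and 158 in the other spots. HF replicate 1 was highest on both sides.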
